A study of Mus musculus with 9 samples.

Results

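The mitochondrial ribosomal protein genes were followed in mouse melanomas that differ in their capacity to make histamine. Members are the genes whose current symbol is Mrpl (large subunit) or Mrps (small subunit) followed by a digit and whose probe was above background on 3 or more of the 9 arrays. They number 76, of which 47 are Mrpl and 29 are Mrps genes, among 13126 genes with such a probe. All 76 were well above background on all 9 arrays and none was saturated, so no member entered through 1 group only. Of 108 probes with such a symbol 107 were kept, and the probe with the highest mean signal stood for each gene.

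The tumours came from 3 variants of B16-F10, a pigmented, metastatic mouse melanoma line. Histamine is made by the enzyme L-histidine decarboxylase (Hdc), and the variants differ in that capacity: lowered in HDC-A, not modified in HDC-M and raised in HDC-S. Each group is 1 line variant, so line and histamine capacity cannot be told apart. Each group had 6 tumours, and RNA of 2 tumours was pooled for each of its 3 arrays. Every tumour pool was labelled with Cy5, without dye swap, and set against Cy3-labelled RNA of HDC-M cells grown in culture. Values are log2 ratios of tumour pool over this cultured reference, so 0 is an equal signal and 1 a doubling. The host strain, the age of the animals and the time of growth were not given in the sources used here.

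Mitochondria keep their own ribosome, which makes only a handful of hydrophobic subunits of the respiratory chain and ATP synthase. Its RNA is transcribed from mitochondrial DNA, but all its proteins are encoded in the nucleus, made in the cytosol and imported. Some descend from the proteins of bacterial ribosomes, and others were added later in evolution. The ribosome is tethered to the inner membrane at the mouth of its exit tunnel, and a protuberance at the centre of the large subunit is built mostly of such added proteins. In tumours this machinery is often discussed as part of respiratory capacity.

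The labels were first checked against Hdc itself. Its log2 ratio was 0.15, 0.15 and 0.42 in HDC-A, 0.60, 0.48 and 0.06 in HDC-M and 0.44, 0.33 and 0.61 in HDC-S pools. The groups overlapped, and the two-sided exact permutation p was 0.8 for HDC-S against HDC-M, 0.6 for HDC-A against HDC-M and 0.2 for HDC-S against HDC-A, where 0.1 is the smallest this design allows. Between 58.0% and 69.7% of probe spots were well above background in Cy5, and the number of arrays limits the precision. Of 8 melanocyte markers 6 were measured, with medians against the culture from 0.09 to 1.07 over the arrays. Dct, among these 6, was saturated on all 9 arrays. All 6 fibroblast markers were above the culture, with array medians from 2.64 to 5.36, so transcripts of stromal cells stood far above the cultured reference. In such pools fewer tumour cells and less RNA per cell cannot be told apart.

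RefSeq promoter windows of build GRCm38.p6, from 250 bases before to 50 after a start site, were matched to 67 of the 76 genes (73 windows). They are shown here because members are transcribed from scattered nuclear sites and the motifs their promoters share were not used in choosing them. The ETS core CCGGAAG, bound by GABP among others, was found on either strand in 35.6% of member windows and in 8.86% of all 32851 windows. The NRF1 core CATGCGC stood in 11.0% against 3.91%, and the YY1 core AAGATGG in 17.8% against 6.34%. The CCAAT box was about as common in member windows (39.7%) as in all (37.4%). A form of the NRF1 core with C, CACGCGC, was added after the Mrpl45 window had been read and stood in 9.59% of member and 5.0% of all windows. These are matches of letters, not binding sites, and none of these motifs contains another. Of the 12 members that differed between HDC-S and HDC-A tumours, 11 had a window: 9 windows held at least 1 of these motifs, Mrpl55 and Mrps5 none, and 6 none in the bases before the start. The ETS core stood in 2 of the 11. The windows below were picked from those with a motif before the start, with motif letters in capitals, read 5′ to 3′ on the gene's strand and ending at or near its start. For Mrps9 (chr1:42850983-42851232, plus strand) and Mrpl58 (chr11:115403502-115403751, plus strand) 250 bases are given, with a CCAAT box in the first and an ETS core in the second. The last 28 bases of the Mrpl58 window, which hold its ETS core, lie within the annotated span of Mrpl58. For Mrpl45 (chr11:97315677-97315706, plus strand) and Mrpl36 (chr13:73330968-73330997, plus strand) 30 bases are given, since their windows lie within the annotated span of the gene itself. They hold the C form of the NRF1 core on both strands and the YY1 core on the opposite strand.
Mrps9: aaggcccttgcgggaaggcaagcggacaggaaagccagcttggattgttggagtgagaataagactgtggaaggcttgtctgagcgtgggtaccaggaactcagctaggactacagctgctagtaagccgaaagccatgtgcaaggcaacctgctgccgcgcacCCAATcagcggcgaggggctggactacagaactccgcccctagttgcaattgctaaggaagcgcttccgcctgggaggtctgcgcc
Mrpl58: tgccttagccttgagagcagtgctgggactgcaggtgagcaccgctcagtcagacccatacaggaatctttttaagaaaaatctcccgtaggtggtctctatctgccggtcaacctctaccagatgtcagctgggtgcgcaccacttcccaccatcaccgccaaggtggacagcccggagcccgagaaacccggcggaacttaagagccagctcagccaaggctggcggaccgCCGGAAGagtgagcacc
Mrpl45: tgcgCACGCGCgaacccactGCGCGTGccc
Mrpl36: cgtgaccttacgCCATCTTtcttcctggcg

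The first comparison set each tumour group against the cultured HDC-M cells. As a set the members stood close to culture: HDC-A tumours had a median log2 ratio of -0.06, HDC-M tumours of -0.06 and HDC-S tumours of -0.04, where the median of all probes was 0.06, 0.05 and 0.06. By array the members' median was 0.004, -0.12 and -0.02 in HDC-A, -0.09, -0.06 and -0.07 in HDC-M and -0.03, -0.08 and 0.04 in HDC-S. Single genes moved both ways. In HDC-A 22 members were higher and 30 lower than the reference (limma, adjusted p under 0.05; 38.9% and 26.8% of all probes were). In HDC-M 23 were higher and 29 lower (34% and 23.9% of all probes), and in HDC-S 24 were higher and 29 lower (38.2% and 26% of all probes). The reference is 1 RNA sample without a spread of its own, and a dye effect stays in these values.

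The side of 0 on which the members as a set stood depends on how arrays were normalised. With median centring in place of loess, the members' median became 0.31 for HDC-A, 0.72 for HDC-M and 0.32 for HDC-S, so all were above the culture. By array it was 0.52, 0.07 and 0.40 in HDC-A, 0.29, 0.53 and 1.31 in HDC-M and 0.47, 0.14 and 0.36 in HDC-S. The HDC-M values under this setting thus hold 1 array, replicate 3, that stood apart from all others. The median of all probes became 0.15, 0.27 and 0.15 in that order. The split of higher against lower members then turned to 23 against 2 in HDC-A, 54 against 0 in HDC-M and 22 against 2 in HDC-S (limma). In either direction 12517 of 26869 probes passed in HDC-A, 15317 of 26869 in HDC-M and 12186 of 26871 in HDC-S. With scale normalisation and with the scanner software's own ratios the medians stayed between -0.08 and -0.04.

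**Figure D1:**
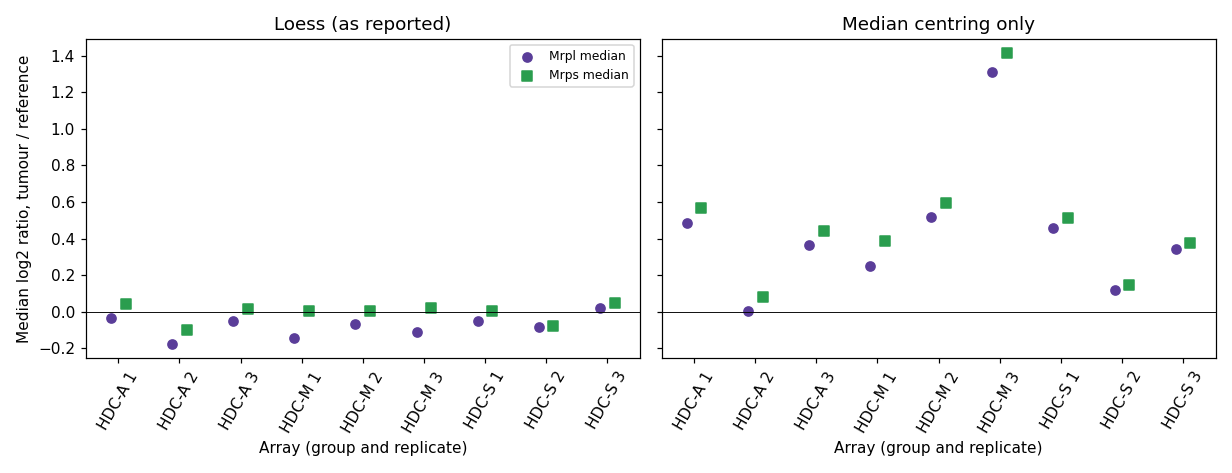
Median log2 ratio of tumour pool over cultured reference (vertical axis) for Mrpl genes (circles) and Mrps genes (squares) on each of the 9 arrays (horizontal axis), after loess (left) and after median centring alone (right). With loess all medians lie between -0.18 and 0.05, and with median centring HDC-M replicate 3 stands apart at 1.31 for Mrpl and 1.41 for Mrps genes.

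The large subunit stood slightly below the small one. The median of the Mrpl genes was below that of the Mrps genes on all 9 arrays, most on HDC-M replicate 1 (-0.15) and least on HDC-S replicate 2, and the median over arrays was -0.07. Mrps18a and Mrps30 carry small-subunit names although their proteins sit in the large subunit, and both were low. Counted with the large subunit, they moved the median difference to -0.13. The gene means had interquartile ranges from -0.34 to 0.21 for Mrpl and from -0.23 to 0.17 for Mrps genes.

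The spread within the family was wide beside the spread between replicates. Averaged over the 9 arrays, 60 of 76 members lay within 0.5 of the culture, and the typical SD within a group was 0.08. Of the 71 members usable on all arrays, 20 were above 0 on all 9 arrays and 22 below on all 9, where 36.8% and 23.1% of all probes were. The highest was Mrpl18, a homologue of the bacterial protein that binds 5S rRNA. Its log2 ratio was 1.05, 0.85 and 0.92 in HDC-A, 1.18, 1.05 and 1.103 in HDC-M and 0.92, 0.78 and 0.89 in HDC-S pools. Every pool of Mrpl18 was above the culture, and its other 2 probes gave means of 0.72 and 0.69.

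Next came Mrps25 (mean 0.63), a small-subunit protein without bacterial homologue, and Mrpl28 (0.62), known in human as an antigen that T cells recognise on melanoma. Mrpl28 was 0.73, 0.65 and 0.60 in HDC-A, 0.74, 0.76 and 0.61 in HDC-M and 0.50, 0.44 and 0.51 in HDC-S pools. The HDC-S pools of Mrpl28 were all below the others, but its difference from HDC-M did not pass (-0.22, SE 0.06, adjusted p = 0.144). Mrpl42, Mrpl12 and Mrpl34 followed at 0.52, 0.45 and 0.44. The second probe of Mrpl42 lay near the culture, with a mean of 0.10, so the place of Mrpl42 among the highest is uncertain. Mrpl12 forms the flexible stalk of the ribosome and also binds the mitochondrial RNA polymerase, and its group means were 0.50 in HDC-S and 0.42 in each of the others, with no contrast past the test.

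At the low end stood Mrpl24 (mean -0.98) and Mrpl15 (-0.94), both homologues of bacterial proteins of the large subunit. Mrpl24 was -0.88, -0.89 and -1.002 in HDC-A, -1.24, -1.16 and -0.90 in HDC-M and -0.95, -0.83 and -1.005 in HDC-S pools. No pool of either gene reached the culture. Mrpl32, Mrpl53, Mrps18b and Mrps15 followed at -0.81, -0.71, -0.68 and -0.65. Under median centring these 6 stayed below 0, between -0.47 (Mrpl24) and -0.14 (Mrps15).

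The 3 copies of Mrps18 replace 1 bacterial protein and occupy different places in the ribosome. Against culture, Mrps18c was above 0 in every group, Mrps18a below and Mrps18b lowest, with group means from 0.23 to 0.28, from -0.53 to -0.50 and from -0.80 to -0.54. In HDC-M tumours Mrps18a (-0.50 ± 0.04, SD, n = 3) and Mrps18b (-0.54 ± 0.04) did not differ beyond their spread. Mrps12, part of the decoding centre, averaged 0.23 in HDC-S, 0.20 in HDC-A and 0.16 in HDC-M pools, and no contrast of it passed.

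**Figure D2:**
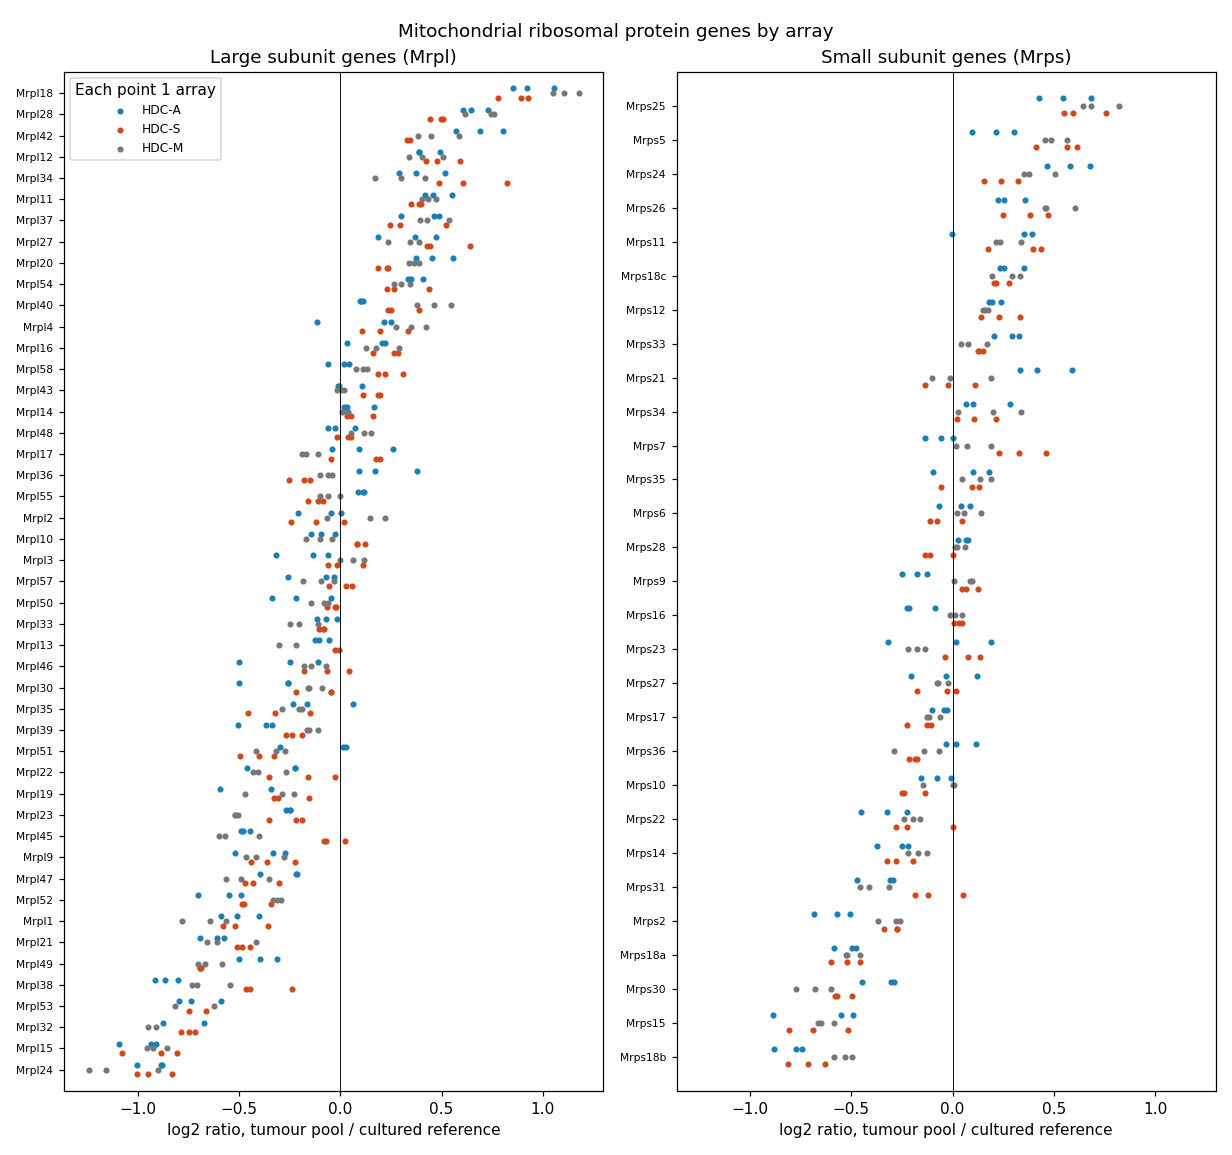
Log2 ratio of tumour pool over cultured reference (horizontal axis) for each of the 47 Mrpl genes (left) and 29 Mrps genes (right), ordered by their mean; each point is 1 array, coloured by group. Genes run from Mrpl24 at -0.98 to Mrpl18 at 0.97, and the 3 colours of a gene mostly lie close together.

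The second comparison, HDC-S against HDC-A tumours, contrasts the raised with the lowered histamine capacity and held most of the differences between groups. Of 76 members, 7 rose and 5 fell (limma, adjusted p under 0.05), so 12 or 15.8% were called, where 5.26% of all probes were (2.84% higher, 2.42% lower) and 6.55% of those above background on all 9 arrays. All differences among the 76 were under 0.5 in size, and the members' median difference was 0.03, beside 0.0045 for all probes. In 31 of 71 members measured in every pool the 3 HDC-S values did not overlap the 3 HDC-A values, where 23.8% of all probes did not. Both directions were found in both subunits: 3 Mrpl genes rose and 3 fell, and 4 Mrps genes rose and 2 fell. Deviations of same-numbered HDC-A and HDC-S arrays correlated mainly for replicate 2 (r = 0.548, against 0.107 and 0.135 for the others). With the replicate number as a block, fitted on all 9 arrays, 4 members rose (Mrpl38, Mrpl45, Mrps7 and Mrps9) and 3 fell (Mrpl36, Mrps21 and Mrps24). In that fit 4.18% of all probes passed (2.18% higher, 2% lower). Mrpl58, Mrps2, Mrps5, Mrpl49 and Mrpl55 did not pass with the block (limma adjusted p from 0.0607 to 0.0748).

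The largest rise was that of Mrpl38, a protein of the central protuberance. Its log2 ratio was -0.80, -0.92 and -0.86 in HDC-A, -0.73, -0.71 and -0.55 in HDC-M and -0.44, -0.47 and -0.24 in HDC-S pools. The groups were ordered from HDC-A over HDC-M to HDC-S without overlap, and HDC-S exceeded HDC-A by 0.48 (SE 0.08, adjusted p = 0.0132). A second probe of Mrpl38 passed as well, at 0.52 (adjusted p = 0.0165).

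Mrpl45 lies at the mouth of the exit tunnel and anchors the ribosome to the inner membrane. It was -0.49, -0.45 and -0.48 in HDC-A, -0.60, -0.57 and -0.40 in HDC-M and -0.07, -0.08 and 0.03 in HDC-S pools. The HDC-S pools alone were near the level of the culture, and Mrpl45 rose by 0.43 over HDC-A (SE 0.07, adjusted p = 0.0103). A second, dimmer probe of Mrpl45 gave 0.19 and did not pass (adjusted p = 0.522), and the mean over both probes did not either (adjusted p = 0.0748).

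Mrpl58, also known as Ict1, frees peptides from stalled ribosomes and is built into the central protuberance. It was 0.02, -0.06 and 0.04 in HDC-A, 0.13, 0.08 and 0.11 in HDC-M and 0.18, 0.22 and 0.31 in HDC-S pools, again in that order without overlap. Its rise of 0.24 (SE 0.06, adjusted p = 0.0462) was the smallest of the 7, and it passed in 0 of the 9 limma fits that left out 1 array (adjusted p from 0.0606 to 0.150).

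The 4 small-subunit genes that rose, Mrps7, Mrps2, Mrps9 and Mrps5, are all homologues of bacterial proteins. Mrps7, in the head of the subunit, was 0.00, -0.13 and -0.06 in HDC-A, 0.19, 0.07 and 0.02 in HDC-M and 0.33, 0.23 and 0.46 in HDC-S pools, a rise of 0.40 (SE 0.08, adjusted p = 0.0203). Mrps2 stood at -0.51, -0.68 and -0.57 in HDC-A, -0.37, -0.26 and -0.28 in HDC-M and -0.28, -0.34 and -0.27 in HDC-S pools. For Mrps2 it was thus the HDC-A pools that stood apart, with HDC-S 0.29 higher (SE 0.06, adjusted p = 0.0327). Mrps9 and Mrps5 were placed the same way: HDC-M and HDC-S means were 0.06 and 0.08 for Mrps9 and 0.50 and 0.53 for Mrps5, against -0.18 and 0.20 in HDC-A. They rose by 0.26 (adjusted p = 0.0335) and 0.33 (adjusted p = 0.0415). Second probes did not pass for these 4 genes: Mrps7 gave 0.38 (adjusted p = 0.0530), Mrps9 0.21 (0.147), Mrps2 -0.0028 (0.993) and Mrps5 0.36 (0.0725, or 0.0222 with the replicate block) and 0.12 (0.305). The second probe of Mrps2 also lay on the other side of the culture, with a mean of 0.17 in HDC-M, 0.12 in either of the others and overlapping groups, so the rise of Mrps2 is uncertain.

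The 5 that fell were Mrps21, Mrpl36, Mrps24, Mrpl49 and Mrpl55. Mrps21, homologue of a small protein at the platform of the bacterial small subunit, was 0.59, 0.33 and 0.42 in HDC-A, -0.10, -0.01 and 0.19 in HDC-M and 0.11, -0.14 and -0.02 in HDC-S pools. It fell by 0.46 (SE 0.10, adjusted p = 0.0316), and the HDC-A pools were above all others. Mrpl36, homologue of a very small bacterial large-subunit protein, was 0.38, 0.09 and 0.17 in HDC-A, -0.10, -0.06 and -0.04 in HDC-M and -0.15, -0.25 and -0.18 in HDC-S pools. It fell by 0.41 (SE 0.08, adjusted p = 0.0190), and it was above the culture in HDC-A pools only.

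Mrps24, a homologue of the bacterial protein at the mRNA entry channel, fell by 0.34 (SE 0.08, adjusted p = 0.0371), from 0.57 ± 0.11 in HDC-A to 0.24 ± 0.08 in HDC-S (SD, n = 3). Mrpl55, counted with the central protuberance, fell by 0.22 (SE 0.05, adjusted p = 0.0441), from 0.10 ± 0.02 to -0.12 ± 0.04. Mrpl49 fell by 0.29 (SE 0.06, adjusted p = 0.0349), from -0.40 ± 0.10 to -0.69 ± 0.0046. Its probes disagree: the other 2 were above the culture, with means of 0.49 and 0.39 where the brightest had -0.58, and gave differences of 0.11 and 0.09 (adjusted p = 0.769 and 0.661). The direction of Mrpl49 is therefore uncertain as well.

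The group that set the difference was not always the same one. HDC-M lay between the other groups in 31 of the 76 members (40.8%), where it did for 36.3% of all probes. In the F-test of any difference among the 3 groups, 9 members passed, where 4.65% of all probes did: Mrpl45, Mrpl38, Mrpl40, Mrpl36, Mrps7, Mrps2, Mrpl23, Mrps21 and Mrps9.

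These calls are close to the limit of 3 arrays a group. Mrpl38 and Mrpl45 alone passed in all 9 fits that left out 1 array, and the number of members called ranged from 2 to 10 over these fits, with 2 without HDC-S replicate 3. Over the same fits 455 to 1389 of all probes passed. With the scanner software's own ratios and with median centring 0 members passed (22 and 0 at an unadjusted limma p under 0.05). Of 26869 probes, 392 and 4 passed after adjustment. Every one of the 12 kept its direction under all 15 other settings. These settings reuse the arrays on which the 12 were chosen, so kept directions are no separate support. On the first scan day the 12 differences were between 0.22 and 0.48 in size and on the second between 0.18 and 0.62, each in the same direction on both. The days split the same arrays, and the second has 1 array a group.

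**Figure D3:**
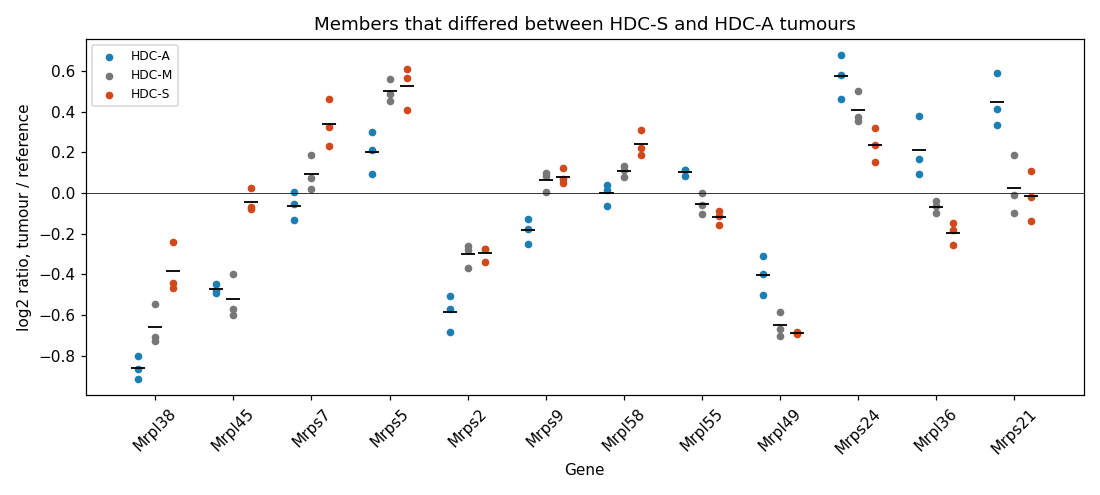
Log2 ratio of tumour pool over cultured reference (vertical axis) for the 12 members that differed between HDC-S and HDC-A tumours (horizontal axis); each point is 1 array and each bar the mean of a group of 3. Mrpl38, Mrps7 and Mrpl58 step up from HDC-A over HDC-M to HDC-S, while for Mrps2, Mrps9, Mrps5 and Mrps21 the HDC-A points stand apart from the others.

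Markers of other cells and of melanocytes were also read between HDC-A and HDC-S tumours. From HDC-A to HDC-S all 6 fibroblast markers were lower (median -0.56), as were all 5 measured muscle (-1.26) and all 5 keratinocyte markers (-1.47), though none passed. Of endothelial markers 1 was higher and 5 lower (-0.19), of T and NK cell markers 3 and 4 (-0.10). Macrophage markers were 5 higher and 3 lower (0.03), adipocyte markers 2 and 2 (0.05), and the 2 measured erythroid markers higher (0.27), again with none passing. Of the 6 measured melanocyte markers 4 were higher and 2 lower (0.02). Tyr was the one called, at -0.48 (limma adjusted p = 0.0121, or 0.0242 with the replicate block). Over the arrays fibroblast markers ran from 3.09 to 5.36 in HDC-A, from 3.20 to 4.06 in HDC-M and from 2.64 to 4.46 in HDC-S, keratinocyte markers from 1.74 to 3.14, from 2.91 to 3.96 and from -0.02 to 1.91, and muscle markers from 2.40 to 3.73, from 1.12 to 2.46 and from 1.03 to 3.41. In each group the array with the highest fibroblast median, replicate 2 in HDC-A and HDC-S and replicate 1 in HDC-M, had the lowest members' median, though with the scanner software's ratios replicate 3 was lowest in HDC-M (-0.104 against -0.101). The part of other cells in the members' differences was not tested.

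The third comparison set HDC-S against HDC-M tumours, raised against unmodified histamine capacity. Only Mrpl45 rose, by 0.48 (SE 0.07, adjusted p = 0.0254, limma), and 0 members fell. This is 1 of 76 or 1.32%, where 0.681% of all probes were called (0.439% higher, 0.242% lower). At an unadjusted p under 0.05, 18 members passed (23.7%, against 14.5% of all probes). The members' median difference was 0.01, the same as over all probes, and turned to -0.41 under median centring, where the median of all probes was -0.12. Of 72 members measured in every HDC-S and HDC-M pool, 25 did not overlap between the groups (21.6% of all probes). The values of Mrpl45 are those given above, with all HDC-S pools above all HDC-M pools. Its second probe gave 0.0047 (adjusted p = 0.993), and under median centring the difference was 0.02.

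The members next in p did not pass. Mrpl23, which lies at the exit tunnel, was -0.52, -0.52 and -0.50 in HDC-M and -0.19, -0.22 and -0.35 in HDC-S pools, a difference of 0.26 (adjusted p = 0.0834). Mrps31, a small-subunit protein without bacterial homologue, was -0.41, -0.46 and -0.31 in HDC-M and -0.19, -0.12 and 0.05 in HDC-S pools, a difference of 0.31 (adjusted p = 0.124). Both differences turned negative under median centring, to -0.22 for Mrpl23 and -0.13 for Mrps31.

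The fourth comparison, HDC-A against HDC-M, asked the same of the lowered capacity. Mrps30 rose and Mrpl40 fell, 2 of 76 or 2.63%, where 1.44% of all probes were called (0.77% higher, 0.67% lower). At an unadjusted p under 0.05, 26 members passed (34.2%, against 15.5% of all probes). The members' median difference was 0.01, as over all probes (-0.42 and -0.11 under median centring), and 25 of 72 did not overlap (20.1% of all probes).

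Mrpl40, a protein of the central protuberance, was 0.10, 0.11 and 0.10 in HDC-A, 0.46, 0.55 and 0.38 in HDC-M and 0.25, 0.23 and 0.39 in HDC-S pools. It fell by 0.36 (SE 0.07, adjusted p = 0.0375), and its other probes gave -0.42 (adjusted p = 0.0502) and -0.33 (adjusted p = 0.108). Mrps30, which despite its name belongs to the large subunit, was -0.31, -0.45 and -0.29 in HDC-A, -0.68, -0.77 and -0.60 in HDC-M and -0.58, -0.57 and -0.49 in HDC-S pools. It rose by 0.34 (SE 0.07, adjusted p = 0.0499) and turned to -0.08 under median centring. Mrps2 came next at -0.28 (adjusted p = 0.0638), and with the Cy5 channel alone its difference was 0.01. Mrpl40 passed in 1 and Mrps30 in 0 of the 9 fits that left out 1 array.

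The members were also grouped by their place in the ribosome. The 6 measured proteins of the exit tunnel and membrane side (Mrpl17, Mrpl22, Mrpl23, Mrpl24, Mrpl45 and Mrpl47) were the lowest group against culture, with a median of -0.49 in HDC-M, -0.29 in HDC-A and -0.22 in HDC-S tumours. All 6 were higher in HDC-S than in HDC-M (median 0.23, 1 called) and all 6 in HDC-A over HDC-M (median 0.19, 0 called by limma at an adjusted p under 0.05), comparisons that share the HDC-M pools. Under median centring these counts turned to 1 and 0 of 6, and the HDC-M median against culture to 0.29, while with scale normalisation and the scanner software's ratios both stayed at 6, and with the Cy5 channel alone they were 6 and 5. The stalk proteins Mrpl1, Mrpl10 and Mrpl12 were all higher in HDC-S than in HDC-M (median 0.18) and than in HDC-A (median 0.07), passing in no contrast, and under median centring all 3 were lower than in HDC-M. Among the 8 proteins of the central protuberance, 2 rose (Mrpl38, Mrpl58) and 1 fell (Mrpl55) from HDC-A to HDC-S, and 1 was lower in HDC-A than in HDC-M (Mrpl40). With the replicate block only Mrpl38 of these passed from HDC-A to HDC-S.

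Members were also split by the origin of their proteins. Of the 46 members with a bacterial homologue 4 rose and 4 fell from HDC-A to HDC-S, with a median of 0.01. Of the 30 members without one 3 rose and 1 fell, with a median of 0.08. With the replicate block 2 rose and 3 fell of the former and 2 rose of the latter (limma). The difference between these classes was not tested.

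Genes that work with the mitochondrial ribosome were read from lists of other factors. Of 5 measured ribosomal proteins named outside the Mrp series, 1 passed: Chchd1, of the small subunit, rose by 0.40 from HDC-A to HDC-S (SE 0.06, adjusted p = 0.00892). Chchd1 was -0.62, -0.70 and -0.77 in HDC-A, -0.43, -0.38 and -0.45 in HDC-M and -0.23, -0.33 and -0.32 in HDC-S pools, so its groups lay in that order without overlap. Dap3, Ptcd3, Aurkaip1 and Gadd45gip1 passed in no contrast between groups.

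Of 25 measured assembly factors, 1 rose from HDC-A to HDC-S, 0 fell and 0 passed in the other contrasts (limma). The one, Bop1 (0.50, SE 0.10, adjusted p = 0.0268), is best known for its part in making the cytosolic large subunit in the nucleolus. Among 14 translation factors, Lrpprc, which protects mitochondrial messenger RNA, was 0.25, 0.29 and 0.25 in HDC-M and -0.30, -0.22 and -0.29 in HDC-S pools. It fell by 0.53 (SE 0.06, adjusted p = 0.0192), with HDC-A pools between at 0.01, 0.03 and -0.15. Of 19 transcription and RNA processing factors, Mtpap, the mitochondrial poly(A) polymerase, rose from HDC-A to HDC-S by 0.36 (SE 0.06, adjusted p = 0.0218; 7 arrays usable). None of the 18 mitochondrial aminoacyl-tRNA synthetases passed between groups.

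Of 5 regulators of mitochondrial genes, added after the lists, 3 passed in a contrast. Nrf1, which gives its motif its name, was higher in HDC-S than in HDC-A by 0.27 (adjusted p = 0.0481, or 0.0501 with the replicate block). Gabpa, the DNA-binding subunit of GABP, was lower in HDC-A than in HDC-M by a log2 difference of -0.38 (adjusted p = 0.0346). Ppargc1a, a coactivator of mitochondrial genes, was lower in HDC-S than in HDC-M by a log2 difference of -0.89 (adjusted p = 0.0394). Myc and Esrra passed in no contrast. The members' medians in the same contrasts were 0.03, 0.01 and 0.01.

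The 84 cytosolic ribosomal protein genes, whose calls in the 2 contrasts with HDC-S went 1 way, are given for comparison. From HDC-A to HDC-S 19 of them rose and 0 fell (2.84% and 2.42% of all probes). From HDC-M to HDC-S 8 rose and 0 fell (0.439% and 0.242% of all probes). The medians were 0.14 and 0.15, the second of which turned to -0.37 under median centring. In HDC-A against HDC-M 0 rose and 1 fell. Against culture the calls went both ways, with 8 higher and 49 lower in HDC-A, 9 and 51 in HDC-M and 14 and 36 in HDC-S. The 83 measured subunits of oxidative phosphorylation resembled the members in moving both ways: 5 rose and 7 fell from HDC-A to HDC-S. Against culture these subunits had medians of 0.12 in HDC-S, 0.13 in HDC-M and 0.20 in HDC-A, and the cytosolic genes of -0.04, -0.19 and -0.21 in that order, with the members between under loess. Under median centring all 3 families had medians above the culture in every group, and so had all probes.

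**Figure D4:**
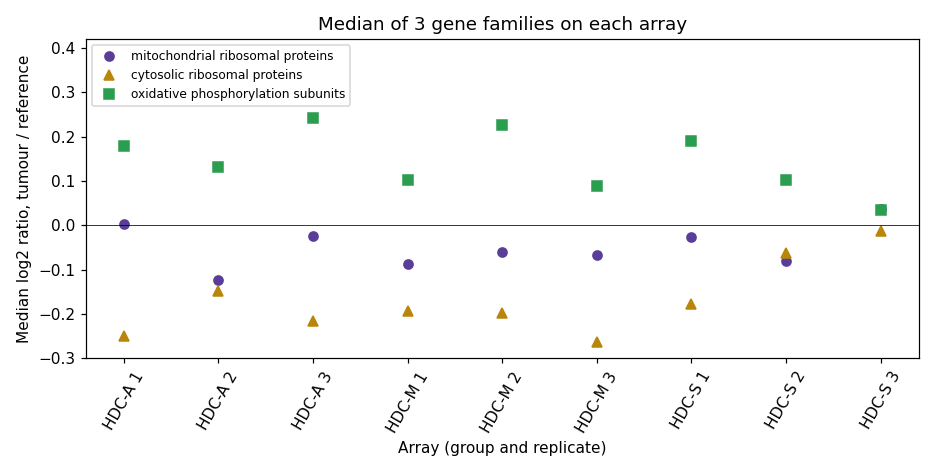
Median log2 ratio of tumour pool over cultured reference (vertical axis) of the members (circles), cytosolic ribosomal protein genes (triangles) and oxidative phosphorylation subunits (squares) on each array (horizontal axis). The members lie between the other families on 7 of 9 arrays; on HDC-S replicate 2 they lie lowest, and on HDC-S replicate 3 their point is covered by that of oxidative phosphorylation.

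The genes whose 9 ratios followed the members' median most closely, among 12315 genes outside the family, were Rps27l (Pearson r = 0.952), Ebag9 (0.945), Ran (0.935), Polr2b (0.930) and Akt1s1 (0.925). These coefficients describe 9 points that share arrays and reference, and the median they follow spans only -0.12 to 0.04.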

How the data were processed

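The authors deposited scanner files with spot intensity values and log10 ratios, written by Agilent Feature Extraction 8.5.1.1 per the file headers. Their value table holds the same log10 ratios at all 43790 spots, within 1e-06. Other columns mark spots above background, saturated or outlying, per the file headers. Mean signals were corrected with normexp (offset 50) and each array was then loess-normalised (limma 3.58.1, R 4.3.3). Control and outlier spots had weight 0, spots of a probe were averaged, and probes well above background in Cy5 on at least 3 arrays were kept (26871 of 41174). Probes were named through a RefSeq table. Mrpl41 and Mrpl44 had only probes described without a symbol and were not analysed here. Differences of log2 ratios were tested in 1 limma fit of all 9 arrays, adjusted by Benjamini-Hochberg over all probes kept, threshold 0.05. The fit was tested on simulated data. The labels do not say what replicate numbers share. Deviations from the group means correlated in every same-numbered pair of HDC-A and HDC-S arrays (r = 0.107, 0.548 and 0.135 over probes) but not in all pairs with HDC-M (-0.189 to 0.151), so blocked values are given for HDC-S against HDC-A. Only the pair of replicate 2 exceeded the highest value with HDC-M, and pairs of unlike number were not compared. The block was fitted on all 9 arrays, with the HDC-M arrays in it too.

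Members and lists were chosen with earlier results of these data known. Named are members that pass between groups, at least 3 by p per contrast, the 6 highest and lowest against culture, 7 with known roles and members whose probes disagree. Alternatives covered background, normalization, filter, channel, scan day, replicate number, probes and left-out arrays.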

Additional observations from a re-analysis of the deposited data

How the results depend on the processing

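Directions of named members and of the medians held under most alternatives, and counts of calls did not. The members' median differences from HDC-M lay close to 0, and their sign turned under more settings than median centring. That of HDC-A was below 0 with scale normalization, outlier spots kept, the mean over probes, scan day 1 alone and without HDC-A replicate 1 or 3. That of HDC-S was below 0 on scan day 1 alone and without HDC-S replicate 1 or 3 or HDC-M replicate 1. Median centring turned Mrpl23 (-0.22) and Mrps31 (-0.13) in HDC-S against HDC-M and Mrps30 (-0.083) in HDC-A against HDC-M, and moved the members' medians to -0.41 and -0.42 in these contrasts and to 0.31 (HDC-A), 0.72 (HDC-M) and 0.32 (HDC-S) against culture, with 25 calls against culture in HDC-A and 24 in HDC-S. Over all probes median centring gave 12517 calls against culture in HDC-A and 12186 in HDC-S. The Cy5 channel alone turned Mrps2 in HDC-A against HDC-M (0.0050). The median of HDC-M against culture was -0.0818 with scale normalization and -0.0805 with the scanner software ratios and with the value table. Under median centring the members' median was 1.31 on HDC-M replicate 3, against 0.29 and 0.53 on the other HDC-M arrays. The cause of these changes between settings was not tested.

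HDC-S against HDC-A had 0 calls under median centring, the scanner software ratios, the value table and scan day 1 alone (0, 22, 22 and 19 at an unadjusted limma p under 0.05), 1 under scale normalization, 2 with Cy5 alone, 3 with these groups alone, 7 with scan day as a block and 7 with the mean over probes. Over all probes 4, 392, 392, 9, 165, 782, 740, 1156 and 1403 passed, in that order. HDC-S against HDC-M had 2 without background correction, and 0 under median centring, Cy5 alone, scanner software ratios, the value table, scan day 1 alone, these groups alone and the mean over probes (7 to 19 unadjusted). All probes had 315 calls without background correction, then 5, 28, 7, 7, 30, 12 and 182 in that order. HDC-A against HDC-M had 0 under median centring, scale normalization, Cy5 alone, scanner software ratios, the value table, scan day as a block, scan day 1 alone and these groups alone (13 to 27 unadjusted). All probes had 2, 54, 369, 18, 18, 184, 5 and 86 calls in that order. The F-test had 14 without background correction, 0 under median centring, scanner software ratios, the value table and scan day 1 alone (3 to 26 unadjusted), 1 under scale normalization, 2 with Cy5 alone and 3 with scan day as a block. All probes had 1677, 5, 102, 102, 6, 146, 678 and 920 calls in that order. Leaving out 1 array gave 2 to 10 calls in HDC-S against HDC-A, 0 to 1 in HDC-S against HDC-M, 0 to 1 in HDC-A against HDC-M and 0 to 4 in the F-test. Over all probes these ranges were 455 to 1389, 4 to 189, 21 to 218 and 341 to 1127. The second scan day has 1 array a group and could not be fitted alone. With Mrps18a and Mrps30 in the large subunit the difference of subunits was -0.13.

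With the replicate block, 7 members passed in HDC-S against HDC-A, 0 in HDC-A against HDC-M (27 unadjusted) and 2 in the F-test. The HDC-M arrays were in this block too. Of the other comparisons, 207 values of counts, medians and subunit differences stayed within their limits and 78 moved. Of values of single members, 436 stayed the same. Here that means that a call or the lack of one was kept, or that a value against culture stayed within its SD. The 436 are thus not a count of calls kept. Another 202 lost their call and kept only their direction, 18 moved and 4 reversed.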
